A study of Homo sapiens with 2 samples.

Results

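The 10 genes described here are direct transcriptional targets of the tumour suppressor p53 other than CDKN1A, the gene of p21. They are MDM2, TP53INP1, ZMAT3, GDF15, SESN1, BTG2, GADD45A, FAS, TP53I3 and DDB2. They were chosen by name, with earlier results of these data known. Every array probe annotated to one of them was taken, which gave 15 probes, and 13 of these, for 8 genes, had a value on both arrays. In all, 11579 named genes had a value. The single FAS probe and 1 of the 2 MDM2 probes were null on both arrays, and BTG2 was not analysed here. The cells were Huh7, an established human hepatocellular carcinoma line. One culture had been infected with an empty lentiviral vector and the other with a lentivirus that expresses shCD133, a short hairpin RNA directed at CD133, so that both carried a lentiviral insert. Each condition was represented by 1 array. No value below therefore has a replicate error and no test was possible. CD133 is a surface glycoprotein encoded by PROM1 that marks stem-like cells in liver cancer, and the series concerns its control by the transcription factor STAT3.

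p53 is a transcription factor that is stabilised after DNA damage and other stresses and then activates genes for cell-cycle arrest, apoptosis, DNA repair and metabolic adaptation. MDM2, itself a p53 target, ubiquitinates p53 and closes a negative feedback loop. Several of the genes described here also respond to regulators other than p53, such as ATF4 and FOXO factors.

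p53 binds a pair of 10-base copies of its consensus decamer, and the RefSeq promoter windows (GRCh38.p14, from 250 bases before to 50 bases after an annotated start) of the genes were searched for such a pair. The search read the consensus, which equals its own reverse complement, with a spacer of up to 13 bases and up to 2 mismatches in the pair. The core C and G of each decamer always had to match. Overlapping matches were reduced to the best of each window. A promoter window was found for 8 of the 10 genes (17 windows), and 3 genes held an element: MDM2, DDB2 and FAS. No window was found for TP53INP1 or GADD45A, so these were not searched. The genes with a window include BTG2 and FAS, for which there was no array value, so they are not the same 8 genes as those measured. Of all 27305 genes with a window, 3.62% held one (2.93% of 35116 windows). The 8 genes had more windows each than genes in general, so the counts per gene are not fully alike. With no mismatch allowed, DDB2 alone of these 8 genes held an element, beside 0.0366% of all genes. The elements are shown because they are the binding sequences by which p53 is known to act, with the decamers in capitals and a spacer, where there is one, in lower case. The DDB2 element began 6 bases and ended 26 bases into the transcript of the more downstream start.
MDM2 element, chr12:68808923-68808942, plus strand: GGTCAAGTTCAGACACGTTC
DDB2 element, chr11:47214979-47214999, plus strand: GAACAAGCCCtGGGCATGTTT
FAS element, chr10:88991309-88991328, plus strand: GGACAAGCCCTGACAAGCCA
The MDM2 element lay in 2 overlapping windows, which belong to the internal, p53-responsive promoter of the gene. The 250 bases before the first of these starts follow, with the element in capitals. Capitals mark only the pair kept by this search. Decamers without the core C or G could not be found, so the lower-case bases are not shown to lack p53 sites. The same stretch is given for ZMAT3, which was at least 2-fold lower on all 3 of its probes, at the more upstream of its 2 annotated starts in the table. Neither ZMAT3 window held an element, which says only that these letters are not in these windows.
MDM2, chr12:68808767-68809016, plus strand: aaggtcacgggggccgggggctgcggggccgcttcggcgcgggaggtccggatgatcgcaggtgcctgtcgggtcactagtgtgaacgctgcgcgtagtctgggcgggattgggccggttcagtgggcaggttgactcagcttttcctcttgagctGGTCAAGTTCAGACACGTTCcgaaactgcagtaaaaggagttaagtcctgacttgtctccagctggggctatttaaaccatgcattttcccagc
ZMAT3, chr3:179071810-179072059, minus strand: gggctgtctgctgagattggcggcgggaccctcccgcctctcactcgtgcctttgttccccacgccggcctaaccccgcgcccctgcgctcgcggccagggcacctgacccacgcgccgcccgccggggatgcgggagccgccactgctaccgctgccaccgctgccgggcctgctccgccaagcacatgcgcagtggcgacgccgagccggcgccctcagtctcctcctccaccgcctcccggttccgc

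Values are the authors' normalized log2 intensities, and every difference is taken on the log2 scale with the vector value subtracted from the shCD133 value. PROM1, the hairpin's target, was at 13.58 on the vector array and 10.83 on the shCD133 array, which left 14.9% of the unlogged intensity. Of the hepatocyte-lineage markers, ALB, AFP, TF and SERPINA1 were at 13.94 or above on the vector array and TTR and APOA1 at 11.65 and 11.67. The blood-cell markers PTPRC and CD3E and the endothelial marker VWF had no value on either array, while the monocyte marker CD14 was at 8.32 and 9.92 and the fibroblast collagen gene COL1A2 at 11.55 and 12.50. COL1A1, DCN and PECAM1 lay between 7.44 and 8.52 on both arrays, and HNF4A was not analysed here. Their part in the results below was not tested. The lowest value in the table was 6.65, and no background had visibly been removed, so differences of probes near it are compressed. The median named gene differed by 0.11, 59.2% of named genes were above 0, and the middle 50% of genes lay between -0.30 and 0.39. The only measure of error in the data was the disagreement between probes of 1 gene. It gave an SD of the difference of 0.40 per probe where the dimmer probe was under 8, 0.30 from 8 to 10 and 0.20 at 10 or more. It covers probe measurement and transcript differences, not variation between cultures.

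ZMAT3 and TP53INP1 were more than 2-fold lower with shCD133, and none of the 8 measured genes was 2-fold higher. Among all named genes the share past 2-fold was 8.26% on the lower side and 2.08% on the higher side. At 1.5-fold, 3 of the 8 genes were lower, with SESN1 added, and 1 (DDB2) was higher, beside 16.3% and 12.3% of all named genes. The remaining 6 genes differed by less than 2-fold: SESN1, GDF15 and MDM2 were below 0 and GADD45A, TP53I3 and DDB2 above it. The median of the 8 genes was -0.27, beside 0.11 for all named genes. Of the 13 probes, 9 were below 0 and 4 above it, whereas 59.0% of all named probes were above 0, and 4 were at least 2-fold lower and 0 higher (all named probes, 7.65% and 1.96%). The 4 belonged to 2 genes, 3 to ZMAT3 and 1 to TP53INP1, so they are not separate observations. The genes thus did not share a direction on these arrays.

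**Figure D1:**
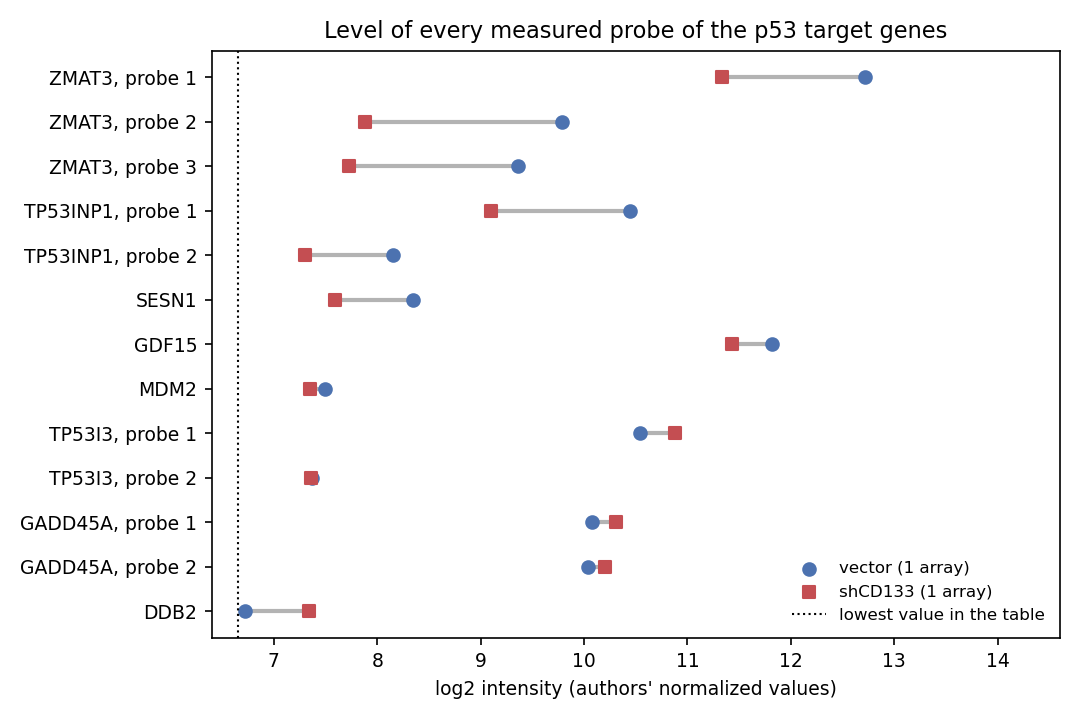
Log2 intensity (horizontal axis) of each of the 13 measured probes, with circles for the vector array and squares for the shCD133 array, joined by a line, and the lowest value of the table as a dotted line. All 3 ZMAT3 probes and both TP53INP1 probes lie lower with shCD133, and the DDB2 circle at 6.72 sits almost on the dotted line.

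Among the genes that feed back on p53 itself, TP53INP1 was lower with shCD133 and MDM2 was near the dim end of the scale. TP53INP1 encodes a stress-induced nuclear protein that promotes p53 activity and also takes part in autophagy. Its brighter probe read 10.44 on the vector array and 9.10 on the shCD133 array, a difference of -1.34, or 2.54-fold lower. The other probe of the same transcript (NM_033285) read 8.15 and 7.31, a difference of -0.84. Both probes were thus lower, and the second ended close to the lowest values, which limits its difference. The probes differed by 0.50 from each other, less than the 1.24 that bounds 95% of such gaps for genes whose dimmer probe is under 8. Of the 11579 named genes, 522 had a lower difference than TP53INP1. MDM2, the ubiquitin ligase that degrades p53, read 7.50 on the vector array and 7.35 on the shCD133 array on its measured probe. The MDM2 difference of -0.15 was smaller than the probe SD of 0.40 at this level. On the unlogged scale the MDM2 probe stood at 181 and 163, beside a lowest intensity of 100.5, so a change of the transcript could be hidden in the background.

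ZMAT3, which encodes a zinc-finger protein that binds RNA and regulates splicing and transcript stability, was the second of the 2 genes more than 2-fold lower. The brightest ZMAT3 probe read 12.72 on the vector array and 11.33 on the shCD133 array, a difference of -1.38, or 2.61-fold lower. A second probe of the same transcript (NM_152240) read 9.79 and 7.88, a difference of -1.91. The third probe, annotated to the complementary DNA BC036485, read 9.36 and 7.73, a difference of -1.64. All 3 ZMAT3 probes were therefore at least 2-fold lower, and the shCD133 intensity was 26.7% to 38.3% of the vector intensity. They spanned 0.52. The probes with the larger differences ended below 8 on the shCD133 array, where differences are compressed. Of all named genes, 483 had a lower difference than the brightest ZMAT3 probe.

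GADD45A, a growth arrest gene whose small nuclear protein binds PCNA and CDK1 and activates MAP3K4, differed little. Its brighter probe read 10.07 on the vector array and 10.31 on the shCD133 array, a difference of 0.23. Its other probe read 10.04 and 10.21, a difference of 0.17. The 2 probes of GADD45A gave nearly the same small difference, which was about the size of the probe SD of 0.20 at this level, and after removal of the length trend GADD45A differed by -0.048. BTG2, an antiproliferative factor that recruits the CCR4-NOT deadenylase, was not analysed here.

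Of the metabolic and redox targets, SESN1 had the larger difference. SESN1 encodes a sestrin, a leucine-regulated inhibitor of mTORC1 signalling through the GATOR complexes. Its single probe read 8.34 on the vector array and 7.59 on the shCD133 array, a difference of -0.76, or 1.69-fold lower. SESN1 thus fell short of the 2-fold threshold on a probe that ended at a level where the probe SD was 0.40. With the lowest intensity subtracted its difference was -1.15. TP53I3 encodes a quinone oxidoreductase linked to reactive oxygen species. The TP53I3 probe for transcript NM_147184 read 10.54 on the vector array and 10.88 on the shCD133 array, a difference of 0.35. Its probe for transcript NM_004881 read 7.37 and 7.36, a difference of -0.01. Removal of the length trend left TP53I3 at 0.095, and the mean over its probes was 0.17. Only the brighter TP53I3 probe was away from the lower end of the scale, and the gap of 0.36 between the 2 was below the 1.24 that bounds 95% of gaps at such levels.

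GDF15, a secreted cytokine of the TGF-beta superfamily that suppresses appetite through the brain receptor GFRAL, was abundant on both arrays. Its only probe read 11.81 on the vector array and 11.43 on the shCD133 array, a difference of -0.39, or 1.31-fold lower. On the vector array 89.4% of probes with a value were dimmer than the GDF15 probe. The GDF15 difference exceeded the probe SD of 0.20 at this level but was within the 0.43 that bounds 95% of gaps between probes of 1 gene.

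FAS, a death receptor of the TNF receptor family, had no value on either array. DDB2, which recognises ultraviolet lesions for nucleotide excision repair, read 6.72 on the vector array and 7.34 on the shCD133 array, a difference of 0.62, or 1.54-fold higher. The vector value of DDB2 was 0.07 above the lowest value of the whole table, and 0.0102% of probes were dimmer. With the lowest intensity subtracted the DDB2 difference was 1.90. The size of the DDB2 difference therefore depends on how background is treated, and signal was not told from background here.

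**Figure D2:**
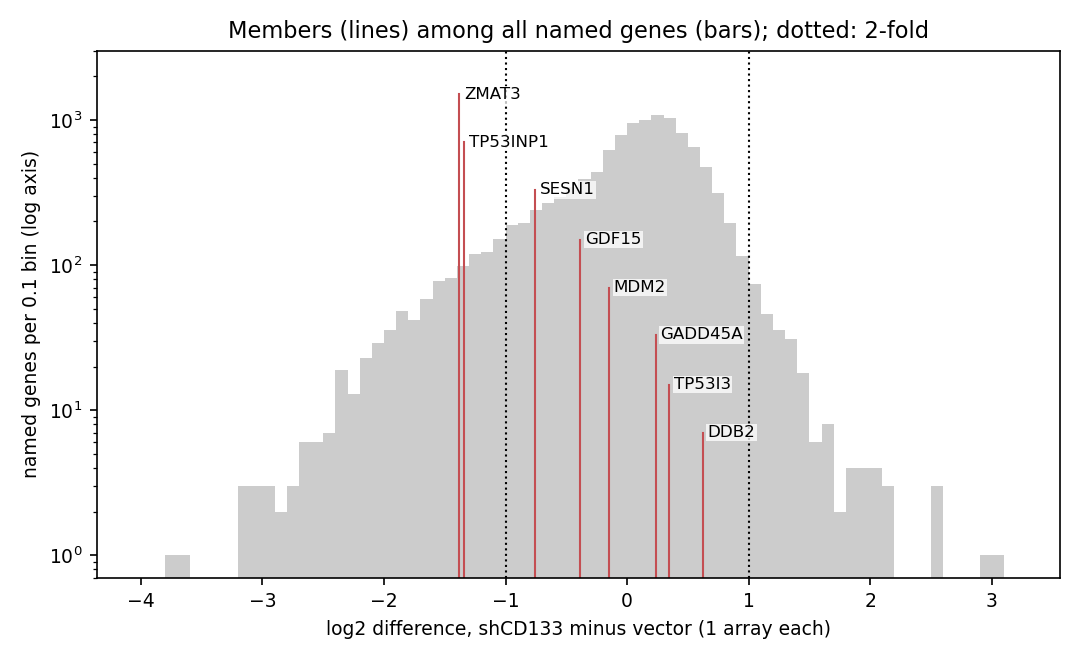
Number of named genes (vertical axis, log scale) in bins of the log2 difference, shCD133 minus vector (horizontal axis), with a line at the difference of each of the 8 measured p53 target genes and dotted lines at 2-fold. The height of a line only makes room for its name. ZMAT3 (-1.38) and TP53INP1 (-1.34) lie beyond the lower 2-fold line, and the other 6 genes lie between the lines.

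Longer genes tended to be lower with shCD133 on these arrays, so each gene was also set beside genes of like genomic length (within 5 percentiles of length). Across 11572 genes, which share 2 arrays and are not replicates, length and difference had a Spearman's rho of -0.34. TP53INP1 spans 23.4 kb, near the median of 27.4 kb, and 1.99% of 1157 genes of like length had a lower difference. ZMAT3 spans 55.3 kb, and 5.28% of 1156 genes of like length had a lower difference. Both were still more than 2-fold lower after the length trend was removed, at -1.48 and -1.36. GDF15, at 3.02 kb, lay lower among short genes than among all, with 6.48% of genes of like length below it against 21.8% of all named genes. SESN1, at 110.5 kb, lay higher, with 26.0% of genes of like length below it against 12.6% of all. Genes as long as SESN1 were at least 2-fold lower in 18.3% of cases, and genes as short as GDF15 in 1.56%.

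**Figure D3:**
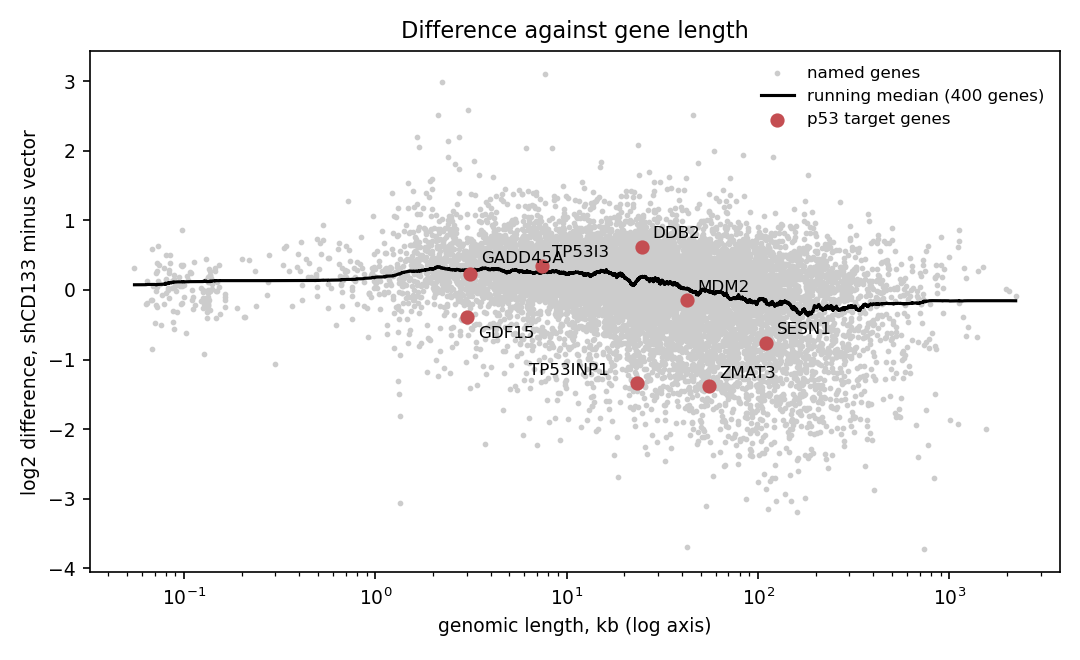
Log2 difference, shCD133 minus vector (vertical axis), against genomic length in kb (horizontal axis, log scale) for all named genes in grey, with the 8 measured p53 target genes in red and a running median over 400 genes in black. TP53INP1 and ZMAT3 lie well below the running median, GADD45A and TP53I3 close to it and DDB2 above it.

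The wider set of p53 targets was described from a list of 60 other direct target genes, of which 48 had a value. Of these, 34 were above 0 and 14 below it, and the median was 0.20. At least 2-fold higher was 1 gene (2.08%) and at least 2-fold lower were 2 (4.17%). Among all named genes these shares were 2.08% and 8.26%. The share above 0 was 59.2% over all named genes, and 29 of the 48 were above the median gene. The list median was 0.09 after centring and 0.05 with the level trend removed. CDKN1A, the p21 gene that arrests the cell cycle, was the 1 higher gene, at 9.99 on the vector array and 11.07 on the shCD133 array, a difference of 1.08. The lower genes were ASCC3, a helicase subunit, at -1.65, and PTP4A1, a phosphatase, at -1.25. Their probes disagreed, since the 4 ASCC3 probes ranged from -1.65 to 0.51 and the other PTP4A1 probe differed by -0.35. With the mean over all probes no gene of this list was 2-fold lower. APAF1, the apoptosome scaffold, differed by -0.91, and its other probe by -0.11.

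Of 29 genes that regulate p53 or its activity, 25 had a value. Of these, 8 (32.0%) were at least 2-fold lower, beside 8.26% of all named genes. The list was chosen with earlier results of these data known, so the shares only describe it and were not tested. The median of the 25 genes was -0.62, with 17 below 0. These genes are long, with a median of 56.0 kb. With the length trend removed 7 of them were at least 2-fold lower and the list median was -0.59. The mean over all probes left 6 at least 2-fold lower. The DNA-dependent protein kinase gene PRKDC differed by -2.38, although its 4 probes ranged from -2.38 to -0.21. TP53BP2, which encodes a p53-binding cofactor in apoptosis, differed by -1.86 on its brighter probe and 0.37 on the other. The ubiquitin ligase gene TRIM24 differed by -1.71, although its 3 probes ranged from -1.71 to -0.46. UBE3A, also a ubiquitin ligase gene, was at -1.44 and -1.24 on its 2 measured probes. ATM, the kinase that signals double-strand breaks, differed by -1.36, with its other probe at -0.36. HIPK2, a kinase that phosphorylates p53, was at -1.36 and -1.40 on its 2 measured probes. The damage adaptor gene TP53BP1 differed by -1.23 and the acetyltransferase gene EP300 by -1.05. PPP1R13L, which encodes an inhibitor of p53-driven apoptosis, read 8.39 and 9.54, a difference of 1.15. It was the 1 gene of this list at least 2-fold higher (4%), beside 2.08% of all named genes. MDM4, the MDM2 paralog that masks the activation domain of p53, differed by -0.21 from a vector level of 7.41.

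**Figure D4:**
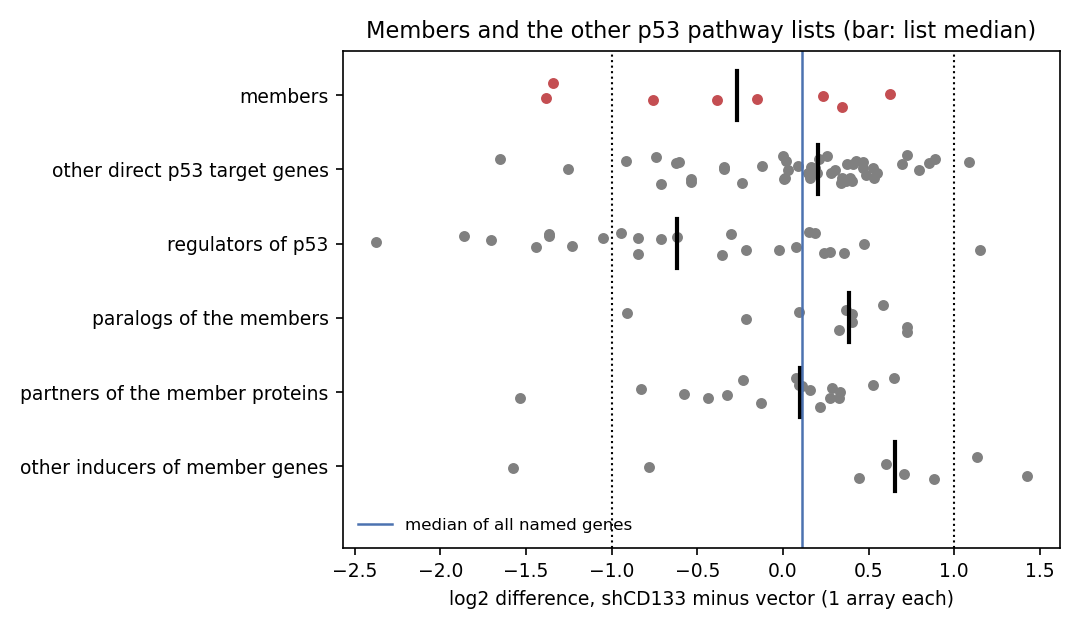
Log2 difference, shCD133 minus vector (horizontal axis), of each measured gene of the 8 p53 targets and of the 5 other gene lists, with black bars at list medians, dotted lines at 2-fold and a blue line at the median of all named genes (0.11). The points of the p53 regulators extend farthest to the left, to PRKDC at -2.38, and the 48 other p53 targets gather just above 0.

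Of 11 paralogs of the 10 genes, 10 had a value, 8 were above 0 (59.2% of all named genes) and the median was 0.39. That median was 0.22 with the level trend removed and 0.13 with the length trend removed. None was 2-fold different, beside 8.26% of all named genes on the lower side and 2.08% on the higher side. No difference between a gene and its paralog was tested. SESN2, a stress-induced sestrin, read 7.64 on the vector array and 8.36 on the shCD133 array, a difference of 0.73, whereas SESN1 was at -0.76, and SESN3 differed by 0.09. TP53INP2, an autophagy protein, differed by 0.37, whereas TP53INP1 was at -1.34. GADD45B read 11.13 and 11.85, a difference of 0.72, and GADD45G differed by 0.41 from a vector level of 6.97, near the lower end of the scale. Among the relatives of BTG2, BTG1 differed by 0.40, BTG3 by 0.33 and TOB2 by 0.59, while TOB1 read 10.50 and 9.59, a difference of -0.91.

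Proteins that act with the products of the 10 genes were represented by 18 measured genes of 21, with a median of 0.10, close to that of all named genes. After centring the list median was -0.012. MAP3K4, the kinase that GADD45 proteins activate, read 10.20 on the vector array and 8.66 on the shCD133 array, a difference of -1.54. It was the only gene past 2-fold in this list (5.56%), beside 8.26% of all named genes at least 2-fold lower. CUL4B and CUL4A, the cullins that carry DDB1 and DDB2, differed by -0.83 and -0.58. NPRL2, a subunit of the GATOR1 complex in the pathway on which sestrins act, differed by 0.65. The FAS ligand gene FASLG, CASP10 and GFRAL had no value on either array.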

How the data were processed

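RNA of 2 Huh7 cultures, 1 per condition, was read on an Illumina bead array. The values are the authors' deposited log2 intensities, with base 2 read from their range. GenomeStudio 2011.1 is named in the submitters' processing notes, with no role. Sorted values matched between the arrays to within 0.000439, as after quantile normalization, which forces 1 distribution on both. Of 47323 probes 19665 had a value, and the filter was not given in the sources used here. A second table was not used, since its 4 value columns match neither sample's labels. No detection call was therefore available. Precision is limited by the number of arrays.

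Probes were named from a 2016 platform annotation, updated from RefSeq (GRCh38.p14), and 15205 had 1 symbol. A gene took its probe with the highest mean. The genes and lists were chosen with earlier results of these data known. All probes of the 10 genes are named. In each list the genes past 2-fold and the 4 largest differences are named, with all measured paralogs and PROM1, MDM4 and CDKN1A. DDIT3, CEBPB, EGR1, FOXO1, FASLG, CASP10 and GFRAL were named after their values were seen. Python 3.11.15 was used, and the code was tested on simulated data. Alternatives were the mean over probes, centring, removal of running medians (400 genes) against level or length, subtraction of the lowest intensity (offset 16), 1.5-fold, and a mean level of 8 or more.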

Additional observations from a re-analysis of the deposited data

How the results depend on the processing

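No paired analysis was possible because each condition had 1 array. Of 40 recomputed differences of the 8 genes (5 alternatives each), 37 kept their sign and their side of the 2-fold threshold. With the running median against gene length removed GADD45A was at -0.048. With the lowest intensity subtracted SESN1 was at -1.15 and DDB2 at 1.90, so that 1 of the 8 genes was at least 2-fold higher, in place of 0. At 1.5-fold 1 gene, DDB2, was higher. ZMAT3 ranged from -1.64 to -1.36 and TP53INP1 from -1.54 to -1.09, and both passed 2-fold under all 5. Among the other p53 targets the 2 lower genes became 0 with the mean over probes and 4 with subtraction, and the 1 higher gene became 0 with centring or the level trend removed and 3 with subtraction. The 8 lower p53 regulators became 13 at 1.5-fold. At that threshold 7 other p53 targets were lower and 6 higher, 1 and 3 paralogs, 2 and 1 partners, and 2 and 5 of the other inducers. Of all named genes 16.3% were lower and 12.3% higher at 1.5-fold. The 2 inducers at least 2-fold higher became 1 with the level trend removed. The 1 higher regulator was lost with either trend removed. In the partner list subtraction or removal of the level trend gave 2 lower genes in place of 1, and among the paralogs centring or removal of either trend gave 1 lower gene and subtraction 1 higher gene, in place of 0. Over all named genes 956 were at least 2-fold lower and 241 higher, against 1268 and 134 with the level trend removed and 1383 and 577 with subtraction. Probes near the lowest value (MDM2, DDB2 and the second TP53I3 probe) carry the least information.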

Other observations

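Genes of other factors that are known to induce some of the p53 targets were measured as well. NUPR1, a stress-induced chromatin protein, read 9.69 on the vector array and 11.12 on the shCD133 array, a difference of 1.43, and its other probe differed by 1.40. ATF3, a stress transcription factor, differed by 1.13. ATF4, the effector of the integrated stress response, differed by 0.88, and its 3 probes ranged from 0.21 to 1.03. DDIT3 differed by 0.71, CEBPB by 0.60 and the immediate-early factor EGR1 by 0.44. The forkhead factor FOXO3 read 10.61 and 9.04, a difference of -1.57 (-1.46 on its other probe), and FOXO1 differed by -0.78. The 8 genes had a median of 0.66 (0.34 with the length trend removed), with 2 past 2-fold on the higher side and 1 on the lower side, beside 2.08% and 8.26% of all named genes. Among the promoter windows of 49 other p53 targets, 4 genes held a p53 element with up to 2 mismatches, beside 3.62% of all 27305 genes with a window.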
